A study of Mus musculus with 4 samples.

Results

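The interleukin 1 and inflammasome genes described here are 10 of the 30905 genes in the deposited matrix, chosen by symbol. They are the cytokines Il1a, Il1b and Il18, the antagonist Il1rn, the decoy receptor Il1r2, the signalling receptor Il1r1, the sensor Nlrp3, the caspases Casp1 and Casp4 and the pore gene Gsdmd. The study profiled single cells from 4 transplanted mouse hearts at day 5 with 3' droplet RNA-seq, which counts each captured RNA molecule once by its unique molecular identifier (UMI). Donor hearts of 2 allogeneic grafts came from Balb/C mice and those of 2 syngeneic grafts from the recipients' own strain, C57BL/6J; the animals were males of 8 to 10 weeks, and the hearts were placed in C57BL/6J hosts without removing the host's own heart. Each graft therefore holds donor cells together with host leukocytes that entered it, and the counts do not separate them. All 4 libraries lie in 1 matrix, where a cell's barcode ends in a suffix from 1 to 4. No label ties a suffix to a graft, so allogeneic and syngeneic grafts were not compared, and each suffix is given as a sample of unknown group, with no test.

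Interleukin 1 alpha and interleukin 1 beta act through the receptor encoded by Il1r1. Il1rn encodes a soluble antagonist that occupies this receptor without signalling, and Il1r2 encodes a decoy receptor that binds the cytokines and does not signal. Interleukin 1 beta and interleukin 18 are made as inactive precursors: a sensor such as the NLRP3 protein assembles an inflammasome, which activates caspase 1, and caspase 1 cuts the precursors and gasdermin D. Caspase 4 (also called caspase 11 in mice) cuts gasdermin D in response to cytosolic lipopolysaccharide. All of these steps after RNA synthesis happen to proteins, so the RNA levels below say which cells hold the transcripts and not which cells release the cytokine.

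The genes lie on 5 mouse chromosomes (GRCm38, mm10, with GENCODE M21 gene bounds). Il1a spans chr2:129299610-129309972 and Il1b chr2:129364570-129371139, both on the minus strand, and Il1rn lies far from them at chr2:24336853-24351494 on the plus strand. The receptor genes are neighbours on the plus strand, Il1r2 at chr1:40074079-40125231 and Il1r1 at chr1:40225080-40317257. Casp1 at chr9:5298517-5307265 and Casp4 at chr9:5308828-5336783 are also neighbours on the plus strand, and Il18 is on the same chromosome at chr9:50554827-50581840. Nlrp3 is at chr11:59541568-59566956 and Gsdmd at chr15:75862327-75867408, both on the plus strand. Reads of Il1r1 and Il1r2 may be shared with annotated genes that overlap them on the same strand (Gm38070 and Gm37347), and Il1b lies opposite the antisense gene Il1bos.

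Promoter sequences were available in the RefSeq table (GRCm38.p6) for 9 of the 10 genes, Gsdmd being the one without an entry. Each window runs from 250 bases before the transcription start to 50 bases after it, on the strand of the gene. Only the first start listed for a gene was searched, although Il1rn had 3 starts and Il1r1, Nlrp3 and Casp4 had 2 each. The 4 printed here belong to both interleukin 1 cytokines, the antagonist and Casp4. The first 3 were at least 4-fold higher in pooled myeloid than in pooled stromal cells below, and Casp4 was 1.75-fold higher. Capitals mark matches to 7 short motifs searched on both strands: kappaB (GGG and then TTCC with 3 bases between), ISRE (GAAA and again GAAA with 2 bases between), GAS (TTCNNNGAA), AP-1 (TGANTCA), PU.1 (GAGGAAGT), C/EBP (TTNNGCAA) and the TATA box with the letters TATAAA, where N is any base.
Il1b, chr2:129371090-129371389, minus strand: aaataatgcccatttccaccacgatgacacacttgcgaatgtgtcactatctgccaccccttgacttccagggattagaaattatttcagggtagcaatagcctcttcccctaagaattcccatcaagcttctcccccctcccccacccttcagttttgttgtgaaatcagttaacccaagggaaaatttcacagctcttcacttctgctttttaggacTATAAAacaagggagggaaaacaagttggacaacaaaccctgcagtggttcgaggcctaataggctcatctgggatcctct
Il1a, chr2:129309923-129310222, minus strand: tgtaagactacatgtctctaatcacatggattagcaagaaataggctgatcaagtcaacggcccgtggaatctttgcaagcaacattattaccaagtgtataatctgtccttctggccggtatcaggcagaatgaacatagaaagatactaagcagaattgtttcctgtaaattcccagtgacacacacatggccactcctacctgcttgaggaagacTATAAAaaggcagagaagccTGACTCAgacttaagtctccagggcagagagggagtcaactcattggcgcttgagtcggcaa
Il1rn, chr2:24336610-24336909, plus strand: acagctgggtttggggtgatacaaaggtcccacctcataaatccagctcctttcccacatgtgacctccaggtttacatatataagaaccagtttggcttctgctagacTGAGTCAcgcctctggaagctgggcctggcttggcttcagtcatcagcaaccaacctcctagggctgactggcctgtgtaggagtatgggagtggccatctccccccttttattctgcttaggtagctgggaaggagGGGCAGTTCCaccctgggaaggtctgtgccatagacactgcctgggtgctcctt
Casp4, chr9:5308599-5308898, plus strand: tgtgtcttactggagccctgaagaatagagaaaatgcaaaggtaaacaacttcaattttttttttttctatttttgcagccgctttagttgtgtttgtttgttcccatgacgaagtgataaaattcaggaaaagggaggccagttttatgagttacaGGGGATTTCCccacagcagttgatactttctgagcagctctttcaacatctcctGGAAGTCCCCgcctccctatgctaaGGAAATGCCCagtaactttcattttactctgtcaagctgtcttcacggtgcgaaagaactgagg

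Both cytokine promoters held a TATA match, beginning at base -31 in Il1b and at base -32 in Il1a, counted from the start site. TATAAA occurred in 14.2% of the 27025 promoters searched, 1 per gene. Il1a also held an AP-1 match at base -12 and Il1rn one at base -141, against 7.93% of all promoters. The kappaB letters were found in 5.52% of promoters, with 1 match in Il1rn at base -4 and 3 separate matches in Casp4 at bases -93, -39 and -14. Among the promoters not printed, Il1r1 had 1 C/EBP match (10.8% of promoters), Il1r2 had 1 GAS match (8.47%) and Il18 had 1 TATA match. The searched windows of Nlrp3 and Casp1 held none of the 7 motifs, and no searched window of a member matched ISRE (3.49%) or PU.1 (3.28%). A match is a run of letters and not a measured binding site.

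Of 53824 deposited cells, 42396 were kept after removing 9169 with at least 20% mitochondrial UMIs, 29 with too few genes and 2230 marked as doublets. Each suffix held 96020294 to 166079145 UMIs and kept 9358 to 12497 cells, and 308 of 53516 distinct barcodes occurred under more than 1 suffix. Clustering, done without the 10 genes, gave 10 classes named from marker genes, among them 12405 endothelial, 7527 macrophage, 6462 fibroblast, 3870 granulocyte and 1866 T/NK cells; each name is short for cells that carry those markers. The classes were spread unevenly: suffixes 1 to 4 held 98, 2740, 256 and 776 granulocytes and 429, 147, 1064 and 5887 macrophages. Cluster 13, the 1265 cells with the dendritic name, went largely against it. Of the 1265 cells, 1097 were of suffix 4. A shallow subcluster (881 cells, median 922 UMIs), led by genes such as Ubd and the lymphocyte genes Ifng and Gzmb, took 768 of the 1265, and 258 fell in the subcluster led by Ccr7 and Fscn1 (387 cells, median 13119 UMIs). It also held much haemoglobin RNA (Hbb-bs at 14021 CPM), so it is called cluster 13 below and its pooled levels are not described. Clusters 7, 9, 15 and 18 stayed unnamed, and cluster 15 of 1043 cells, led by Arg1 and Ccl24 but also by the platelet gene Ppbp, is named again below because it held much interleukin 1 RNA.

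Levels are counts per 1000000 (CPM), the pooled UMIs of a gene in a class scaled by all non-mitochondrial UMIs of that class, with exact Poisson 95% intervals. Intervals throughout cover counting error only and say nothing of the spread between mice. Because 3' UMI counts also depend on how well each transcript is captured, levels were compared between cells and not between genes.

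Il1b, Il1a, Il1rn, Il1r2, Nlrp3 and Casp4 were each highest in granulocytes among the named classes. Il18, Casp1 and Gsdmd were highest in macrophages, and Il1r1 in fibroblasts. Set as pooled myeloid cells (macrophages and granulocytes) against pooled stromal cells (endothelial, fibroblast, pericyte and smooth muscle), 7 of the 10 genes were at least 4-fold higher in myeloid cells after adding 10 CPM to both sides, against a background of 6.21% of the 7434 genes that reached 20 CPM on one side. The 7 ranged from 5.14-fold for Il18 and 6.30-fold for Il1a to 20.3-fold for Il1rn and 41.5-fold for Il1b. In the other direction 1 gene, Il1r1, passed, against 10.9% of genes. Gsdmd, at 3.42-fold, and Casp4, at 1.75-fold, passed in neither direction. The order is a description of 4 pooled libraries with no replicate of known group, and without suffix 4 the count fell to 5, with Il18 and Casp1 no longer passing.

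**Figure D1:**
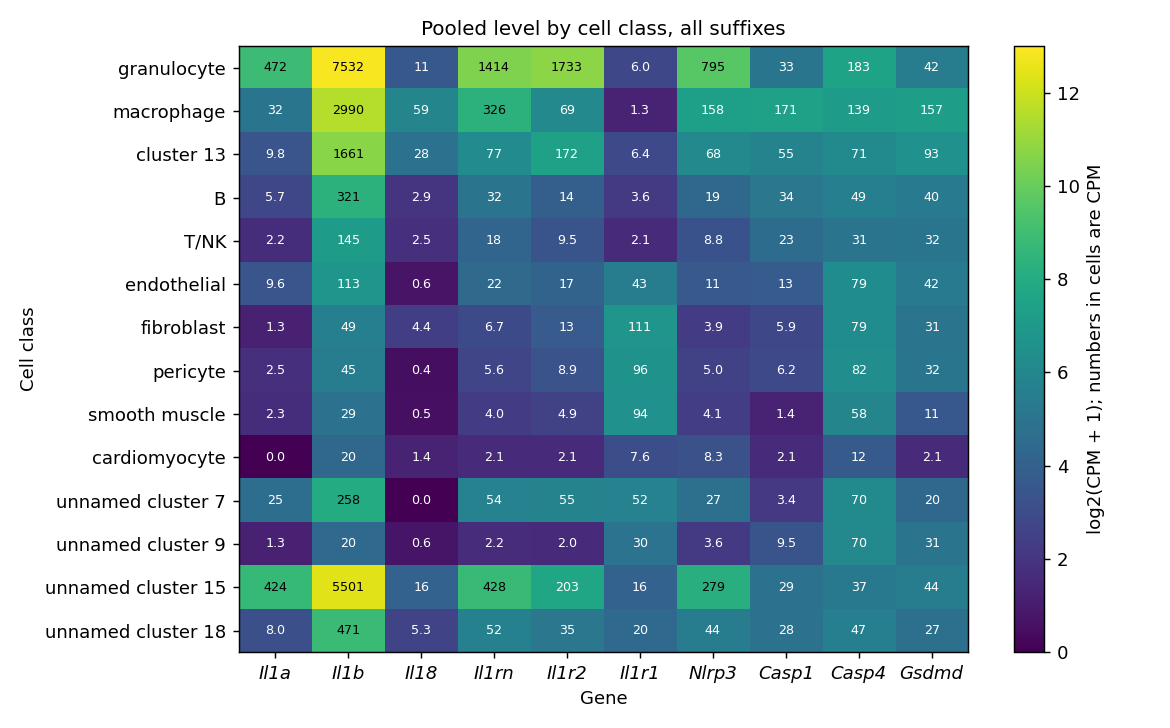
Pooled level of the 10 genes (columns) in the 10 classes with a name, of which the dendritic one is drawn as cluster 13, and in 4 unnamed clusters (rows); colour is log2(CPM + 1) and each printed number is CPM. Granulocytes lead for 6 genes, macrophages for Il18, Casp1 and Gsdmd, and fibroblasts for Il1r1.

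Il1b, the main secreted interleukin 1 of phagocytes, stood at 7532 CPM (7489 to 7576) in granulocytes and 2990 CPM (2980 to 3000) in macrophages, and at 113 CPM in endothelial cells. Endothelial subclusters led by granulocyte genes such as Retnlg and S100a9, all of suffix 2 (649 and 358 cells), had 1792 and 1532 CPM. The next highest endothelial subcluster had 252 CPM. Shares of cells with an Il1b UMI were read within a suffix, with T/NK cells of the same suffix as background, after thinning cells to 1000 UMIs each and leaving out shallower ones. In suffix 4 the thinned share was 99.6% of 726 granulocytes and 76.6% of 5876 macrophages, against 19.99% of 1391 T/NK cells. Without thinning these shares were 99.6%, 97.996% and 81.4% at median depths of 3014, 14780 and 11344 UMIs. In suffix 2 the thinned shares were 80.8% of granulocytes, 73 of 146 macrophages and 9.38% of T/NK cells, in suffix 3 they were 87.5%, 31.4% and 1.67%, and in suffix 1 they were 94.6%, 43.2% and 2.87%. Macrophages and granulocytes thus lay above the T/NK share in every suffix. The background of suffix 2 is weak, because 159 of its 165 T/NK cells fell in a subcluster without a subtype name. That subcluster was led by Fabp4 and the granulocyte genes S100a8 and S100a9.

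Of all Il1b UMIs, macrophages held 59.0%, granulocytes 20.04% and unnamed cluster 15, with a level of 5501 CPM, 14.995%. This order rests on suffix 4. Without it macrophages held 13.8%, granulocytes 34.4% and cluster 15 42.2%, and without suffix 2 the shares were 79.5%, 12.9% and 2.35%.

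In granulocytes the Il1b level was 8190 CPM in suffix 1, 5218 in suffix 2, 6979 in suffix 3 and 18948 in suffix 4. Suffix 4 thus lay above the other 3, which lay within a narrower band. In macrophages the levels were 1768, 1846, 985 and 3420 CPM in suffixes 1 to 4, again highest in suffix 4. The macrophages of the suffixes also fell in different subclusters under a coarser clustering (resolution 0.3). A Ly6c2 monocyte subcluster (3863 CPM) had 5249 of its 5255 cells from suffix 4. A resident macrophage subcluster (1281 CPM) held 402, 145, 998 and 2 cells of suffixes 1 to 4. Leaving out suffix 2, which holds most granulocytes, raised the pooled granulocyte level to 14970 CPM. Adding unnamed cluster 15 to the macrophages of suffix 2, an alternative chosen after seeing the data, gave 5266 CPM there. That is above the 3420 CPM of macrophages in suffix 4, where cluster 15 had 10 cells. The granulocytes of the suffixes were largely different subclusters. Those of suffix 2 fell mostly in a Retnlg and Cd177 subcluster (1790 cells, 5740 CPM of Il1b) and an Ero1l and Hilpda subcluster (644 cells, 3470 CPM), those of suffixes 1 and 3 in a subcluster led by Siglec5 and Csf1 (342 cells, 7839 CPM), and those of suffix 4 in a subcluster of 781 cells led by interferon-induced genes such as Ifit3 and Rsad2 (18928 CPM). That last subcluster was shallow beside its own suffix, with a median of 3009 UMIs, and was left without a subtype name.

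Il1a, which encodes a cytokine that is active without cleavage by caspase 1, was 472 CPM (461 to 484) in granulocytes, 424 CPM in unnamed cluster 15 and 32.4 CPM in macrophages. Those 3 groups held 38.0%, 34.98% and 19.3% of its UMIs, which became 33.3%, 2.42% and 59.4% without suffix 2 and 38.8%, 46.4% and 6.04% without suffix 4. Across suffixes 1 to 4 the granulocyte level was 63.7, 455, 266 and 703 CPM. The lowest value rests on 27 UMIs from 98 cells in suffix 1. Macrophages held 38.4, 118.6, 27.3 and 30.9 CPM, so suffix 2 was highest there and suffix 4 was not.

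Il18 showed another distribution. Macrophages held 84.6% of its UMIs (44.5% without suffix 4), at 58.9 CPM (57.5 to 60.3), while granulocytes had 10.8 CPM and endothelial cells 0.58 CPM. Within macrophages the level was 23.9, 13.8, 32.2 and 66.4 CPM in suffixes 1 to 4. It was highest in the Ly6c2 monocyte subcluster (80.5 CPM), which was almost wholly from suffix 4. Without suffix 4 the pooled macrophage level was 28.5 CPM, and the class with the dendritic name was then highest. In granulocytes the 4 values were 7.08, 3.23, 11.2 and 48.7 CPM, with suffix 4 above the rest. Outside the myeloid cells, a fibroblast subcluster of 47 cells led by the mesothelial genes Msln and Upk3b reached 82.6 CPM (70.2 to 96.6), compared with at most 24.3 CPM in the other 13 fibroblast subclusters.

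Il1rn, the antagonist, followed Il1b across classes but not across the suffixes of granulocytes. It was 1414 CPM (1395 to 1433) in granulocytes, 326 CPM (323 to 329) in macrophages and 21.8 CPM in endothelial cells. The endothelial subclusters led by granulocyte genes, all of suffix 2 (649 and 358 cells), had 403 and 365 CPM. The next highest endothelial subcluster had 23.5 CPM. By suffix the granulocyte level was 323, 1519, 501 and 1412 CPM, so suffixes 2 and 4 lay close together although their Il1b levels were far apart. Macrophages gave 114, 479, 88.5 and 374 CPM, with the same suffixes high. Read as Il1rn UMIs per 100 Il1b UMIs, which involves no scaling by total UMIs, granulocytes had 3.95 (3.30 to 4.68) in suffix 1, 29.1 (28.6 to 29.6) in suffix 2, 7.17 (6.47 to 7.94) in suffix 3 and 7.45 (7.19 to 7.72) in suffix 4. The macrophage ratios were 6.47, 25.9, 8.98 and 10.9. In granulocytes suffix 2 stood above the other 3. In macrophages its value rests on 147 cells, and with the 854 cells of unnamed cluster 15 from that suffix added it was 9.20, where the other suffixes treated alike gave 5.37, 7.70 and 10.9. The Ero1l and Hilpda granulocytes of suffix 2 had the highest Il1rn of the 14 myeloid subclusters, at 2150 CPM.

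**Figure D2:**
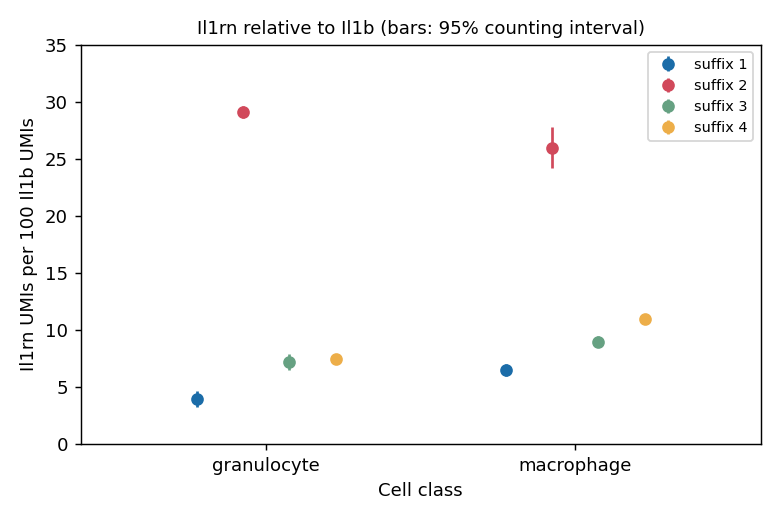
Il1rn UMIs per 100 Il1b UMIs (vertical axis) in granulocytes and macrophages (horizontal axis), 1 point per barcode suffix with its 95% counting interval. Suffix 2 lies at 29.1 and 25.9 and the other suffixes between 3.95 and 10.9, but adding unnamed cluster 15 to the macrophages, not drawn, brings suffix 2 to 9.20.

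Il1r2, the decoy receptor, was 1733 CPM (1712 to 1754) in granulocytes and 69.1 CPM in macrophages. Granulocytes held 62.5% of its UMIs and macrophages 18.5%, but without suffix 2 the shares were 34.9% and 49.1%. Granulocyte levels in suffixes 1 to 4 were 1170, 1797, 1256 and 1687 CPM, a spread of 1.53-fold with 10 CPM added. The subclusters within them varied more, from 2131 CPM in the Retnlg and Cd177 cells to 700 CPM in the Ero1l and Hilpda cells, both of suffix 2. A subcluster led by Ccr7 and Fscn1, genes of mature dendritic cells, had 363 CPM. In macrophages suffix 4 was highest, at 83.6 CPM, with 10.2, 21.4 and 8.75 CPM in suffixes 1 to 3.

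Il1r1, the signalling receptor, lay on the other side of the tissue. Its level was 111 CPM (109 to 113) in fibroblasts, 96.3 CPM in pericytes and 94.0 CPM in smooth muscle, with 42.8 CPM (41.5 to 44.1) in endothelial cells and 1.34 CPM in macrophages. Fibroblasts held 59.4% of its UMIs. Fibroblast levels in suffixes 1 to 4 were 136, 151, 81.0 and 90.8 CPM, and endothelial levels 26.3, 39.5, 56.7 and 45.4 CPM. The order of suffixes therefore differed between the classes, and the fibroblast and pericyte levels were closer to each other than the suffixes were among fibroblasts. Without suffix 1, pericytes were above fibroblasts, which then had 101 CPM. Resting fibroblasts, the larger subcluster of which came mostly from suffix 1, had 167 CPM, and activated fibroblasts 76.6 and 90.7 CPM. At resolution 0.3 a Prg4 stromal subcluster (772 cells, 771 of suffix 2) had 151 CPM (146 to 157). There a subcluster of 250 cells led by Cytl1 and Ptgds had 110 CPM. Among T and NK cells, a gamma-delta T subcluster of 53 cells had 83.4 CPM (53.4 to 124, from 24 UMIs in 16 cells), while the other 8 subclusters had at most 10.6 CPM.

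Nlrp3, the inflammasome sensor, was 795 CPM (781 to 809) in granulocytes and 158 CPM (156 to 160) in macrophages, and 11.4 CPM in endothelial cells. The endothelial subclusters led by granulocyte genes, all of suffix 2 (649 and 358 cells), had 194 and 165 CPM. The next highest endothelial subcluster had 11.5 CPM. Nlrp3 varied little between the suffixes in granulocytes, with 585, 788, 908 and 830 CPM. Macrophages had 174, 487, 158 and 150 CPM, where suffix 2 with its 147 cells was highest. In granulocytes of suffix 2 thinned to 1000 UMIs, 47.5% of the 1996 cells with an Il1b UMI also had an Nlrp3 UMI, against 20.5% of the 473 cells without one. The same shares in macrophages of suffix 4 were 15.5% and 8.45%. Of the 10 genes taken in pairs over 42 units of class and suffix, Nlrp3 and Il1b had the highest correlation of log2(CPM + 10), with r = 0.952; units share libraries, and the value is a description.

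**Figure D3:**
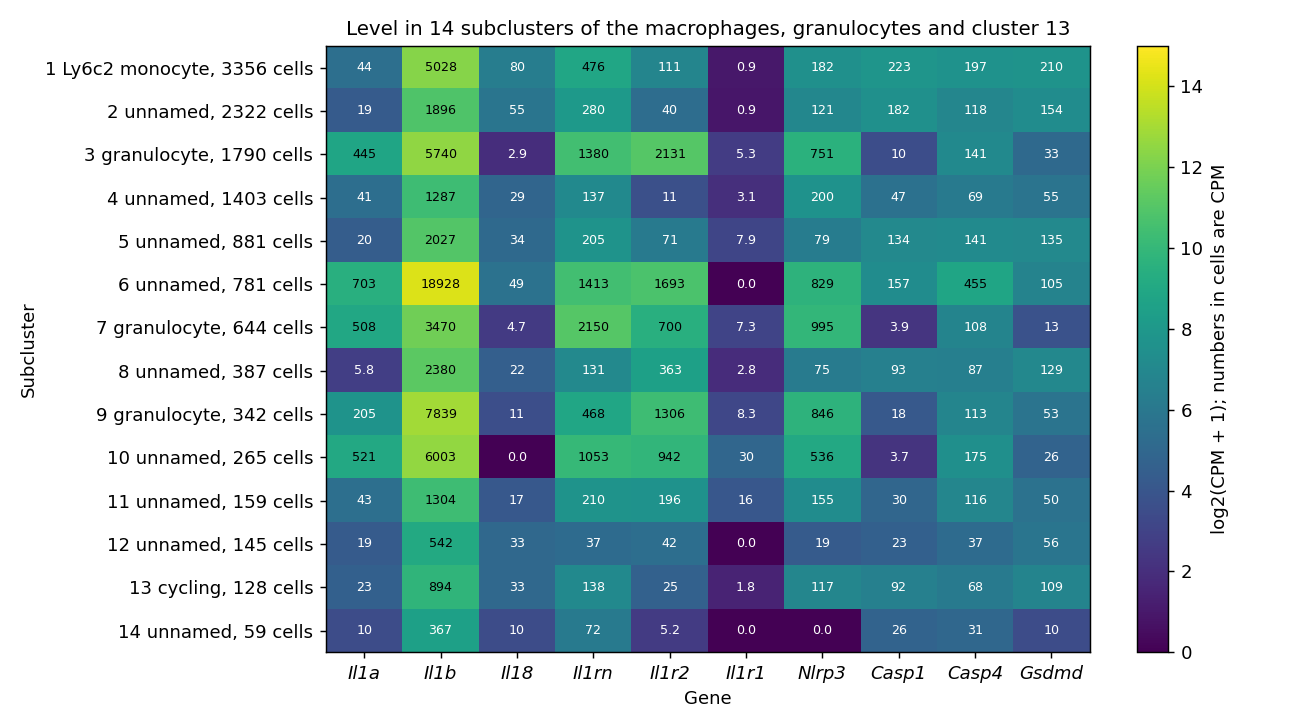
Level of the 10 genes (columns) in 14 subclusters of macrophages, granulocytes and cluster 13 (rows, with cell numbers); colour is log2(CPM + 1) and printed numbers are CPM. Subcluster 6 has the highest Il1b (18928 CPM), subcluster 7 the highest Il1rn (2150 CPM) and subcluster 1 the highest Casp1 (223 CPM) and Gsdmd (210 CPM).

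Casp1, whose product cleaves the interleukin 1 beta and interleukin 18 precursors, was highest in macrophages, at 171 CPM (168 to 173), with 82.2% of its UMIs there (33.1% without suffix 4). Granulocytes, the class with the highest Il1b and Nlrp3, had 32.7 CPM (29.8 to 35.7). Suffix 4 stood apart in both. Macrophage levels were 52.5, 28.1, 46.7 and 201 CPM in suffixes 1 to 4, and granulocyte levels 26.0, 9.07, 13.7 and 156 CPM. Endothelial cells gave 12.3, 5.05, 14.6 and 41.6 CPM and fibroblasts 2.98, 0.91, 2.49 and 28.6 CPM, also highest in suffix 4. A fibroblast subcluster of 54 cells at resolution 0.3, led by myeloid genes and with 53 cells of suffix 4, had 75.5 CPM. Because most macrophages came from suffix 4, the pooled macrophage level without it was 46.3 CPM.

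Gsdmd, the precursor of the gasdermin D pore, was 157 CPM (155 to 159) in macrophages and lay between 30.5 and 42.4 CPM in fibroblasts, pericytes, endothelial cells and granulocytes. Its macrophage levels were 61.7, 36.7, 55.9 and 181.9 CPM in suffixes 1 to 4. Granulocytes had 51.9, 29.1, 49.7 and 103 CPM. Fibroblasts had 31.1, 12.3, 21.6 and 80.5 CPM, and endothelial cells 40.6, 29.9, 37.9 and 115 CPM. In each of these 4 classes suffix 4 was highest and suffix 2 lowest. Without suffix 4 the pooled macrophage level was 55.4 CPM.

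Casp4 was spread over more classes than Casp1, with 183 CPM (176 to 190) in granulocytes, 139 CPM (137 to 142) in macrophages, 82.3 CPM in pericytes, 78.9 CPM (77.2 to 80.7) in endothelial cells and 78.6 CPM (77.0 to 80.3) in fibroblasts. The endothelial and fibroblast intervals overlap. Granulocytes of suffixes 1 to 4 had 89.7, 135, 130 and 452 CPM. Endothelial cells had 79.4, 43.7, 78.4 and 230 CPM. The endothelial subcluster led by interferon-induced genes such as Gbp2b and Cxcl9, 640 cells nearly all of suffix 4, had 231 CPM, and no other endothelial subcluster exceeded 94.5 CPM. Fibroblasts had 123, 39.6, 48.4 and 133 CPM, with suffixes 1 and 4 close together. In suffix 1 fibroblasts (123 CPM) were thus above granulocytes (89.7 CPM), against the pooled order. The larger resting fibroblast subcluster, with 964 of its 1030 cells from suffix 1, reached 192 CPM. The smaller one, also mostly of suffix 1 (544 of 622 cells), had 54.2 CPM. Without suffix 2, the pooled granulocyte level was 337 CPM.

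**Figure D4:**
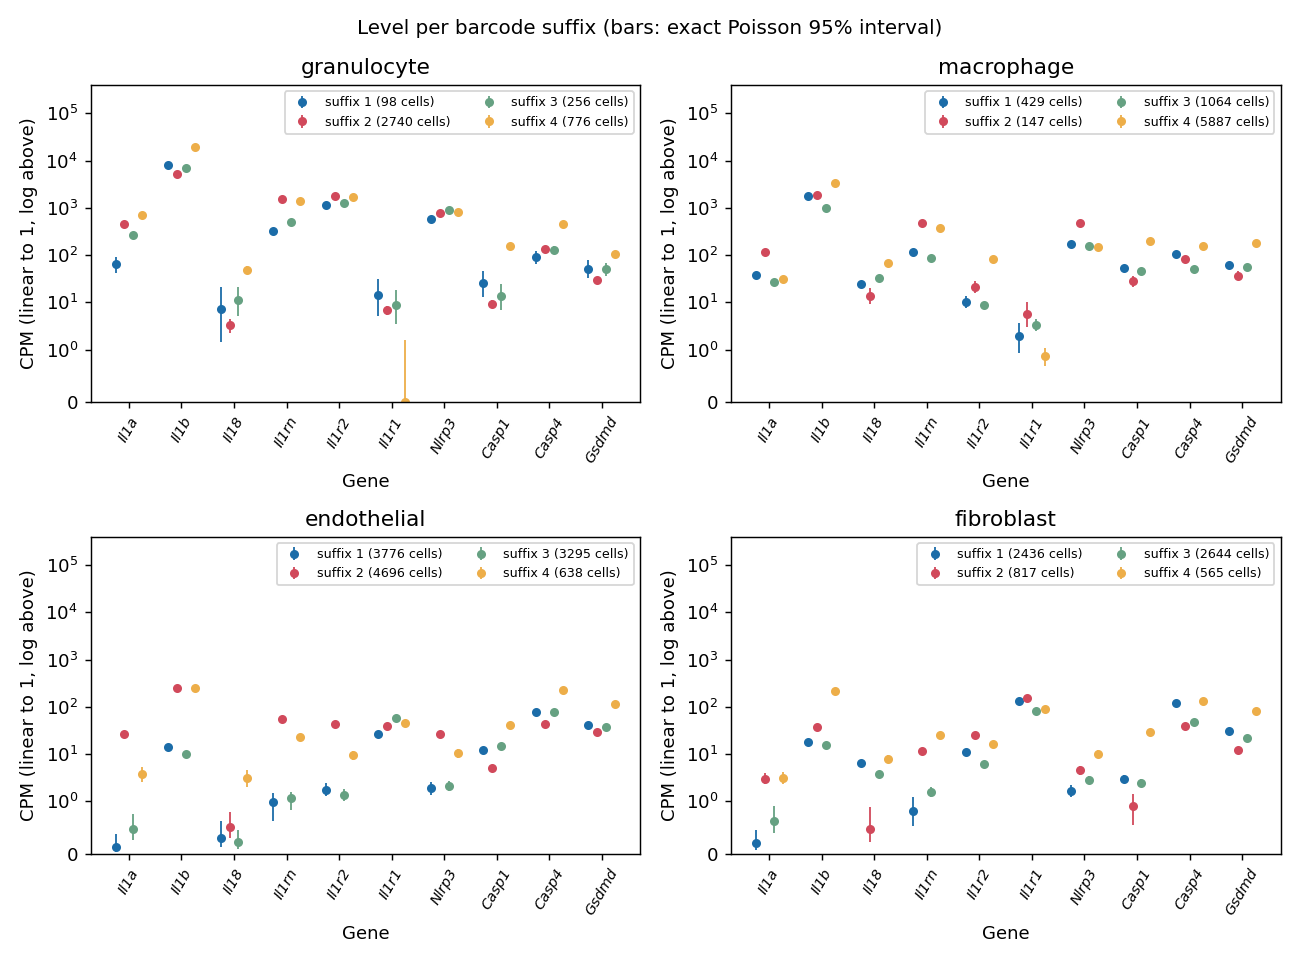
Level of the 10 genes (horizontal axis) per barcode suffix in 4 cell classes; the vertical axis is CPM, linear to 1 and logarithmic above, and bars are exact Poisson 95% intervals. Suffix 4 is highest for Casp1 and Gsdmd in all 4 panels, while Il1r2 and Nlrp3 in granulocytes vary less than the other myeloid genes.

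Across suffixes, a gene was counted when its highest suffix was at least 4-fold above its lowest with 10 CPM added and a level of at least 20 CPM. In granulocytes 5 of 9 genes tested passed (Il1a, Il1rn, Il18, Casp1 and Casp4), against 9.25% of all genes tested. In macrophages 4 of 9 passed (Il1rn, Il1r2, Casp1 and Gsdmd), against 8.07%. In endothelial cells 4 of 9 passed (Il1b, Il1rn, Il1r2 and Casp4), against 5.98%, and in fibroblasts 2 of 7 (Il1b and Gsdmd), against 10.2%. Fibroblast Il1b was highest in suffix 4, at 219 CPM from 3248 UMIs. The fibroblast subcluster led by myeloid genes at resolution 0.3 (54 cells, 53 of suffix 4) held 1993 Il1b UMIs. The fibroblast count was not repeated without that subcluster. Endothelial Il1b was highest in suffix 4, at 253 CPM (2100 UMIs in 638 cells). T/NK cells of that suffix, the background used for Il1b above, held 3592 Il1b UMIs in 1404 cells. B cells there held 408 in 129 cells. Whether the endothelial Il1b of suffix 4 exceeds this background was not tested, so its place in the count is uncertain. Endothelial Il1rn and Il1r2 were highest in suffix 2, at 55.2 and 42.7 CPM. Both rest largely on endothelial subclusters led by granulocyte genes. Without those subclusters the levels in suffix 2 were 15.02 and 14.1 CPM, both below the 20 CPM that the count requires of the highest suffix. The endothelial subcluster led by interferon-induced genes, nearly all of suffix 4, had 23.5 CPM of Il1rn and 9.47 CPM of Il1r2. The endothelial count and its background were not repeated without the subclusters led by granulocyte genes. Il1r1 was tested in endothelial cells and fibroblasts and passed in neither, at 1.84-fold and 1.76-fold. With 1 library per suffix, differences between grafts, strains, library preparation and the mix of subclusters cannot be told apart.

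Granulocyte RNA in stromal cells differed between suffixes, and its part in the stromal levels was not tested. In endothelial cells of suffix 2, S100a8 and S100a9, which granulocytes hold in great amount, summed to 3024 CPM, compared with 47.2, 23.8 and 82.3 CPM in suffixes 1, 3 and 4. Scaling the granulocyte level of each gene by that sum gave 94.4 CPM of Il1b, where 246 CPM was observed, and 32.5 CPM of Il1r2, where 42.7 CPM was observed. Without 2 endothelial subclusters led by granulocyte genes such as Retnlg and S100a9, the Il1b level in that suffix was 69.2 CPM and the scaled value 37.6 CPM. In suffix 4 endothelial cells had 253 CPM of Il1b, where the scaling gave 38.7 CPM. The scaling covers granulocyte RNA alone, while in that suffix macrophages held 306001 Il1b UMIs against 44333 in granulocytes, and T/NK cells had 160 CPM and B cells 702 CPM of Il1b. For Il1r1, Casp4 and Gsdmd the scaled values in endothelial cells and fibroblasts were at most 2.44 CPM.

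By likeness of pattern over the same 42 units among 7780 genes, the nearest gene to Il1b was Ptafr (r = 0.966), the receptor for platelet-activating factor, which was also nearest to Nlrp3 (r = 0.983). Il1rn was nearest to Clec4e (r = 0.974), Il1a to Clec4d (r = 0.953) and Il1r2 to Mcemp1 (r = 0.953). Il18 was nearest to Mpeg1 (r = 0.919), which encodes a macrophage pore protein, and Il1r1 to Rhbdf1 (r = 0.935). Casp1 and Gsdmd had the same nearest gene, Oas1a (r = 0.913 and 0.918), and Casp4 had Oasl2 (r = 0.854). Oas1a and Oasl2 belong to the interferon-induced oligoadenylate synthetase family. The next genes by rank were of other families: Lair1 (0.903) and Scimp (0.894) for Casp1, and Dhx58 (0.903) and H2-D1 (0.892) for Gsdmd. For Casp4 they were Tmbim4 (0.838) and Pnp (0.805).

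A list of 45 other genes of the pathway was examined for context, of which 22 reached 50 CPM in a named class. Of these, 11 were highest in granulocytes, against 10.1% of all 6559 genes at that level. Another 4 were highest in macrophages, against 9.41%, 2 in fibroblasts, against 9.30%, and 1 each in 5 other classes. Among the ligands, Il1f9 (interleukin 36 gamma) was 500.01 CPM in granulocytes and at most 5.08 CPM in the other named classes, and Il33, a cytokine of stromal nuclei, was 205 CPM in fibroblasts and at most 5.93 CPM elsewhere. Fibroblast Il33 was 121, 457, 89.4 and 347 CPM in suffixes 1 to 4, higher in suffixes 2 and 4.

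Receptor subunits were split between classes. Il1rap, the co-receptor needed by Il1r1, was 258 CPM in granulocytes and 19.7 CPM in fibroblasts. Il18rap was 173 CPM in granulocytes, where Il18r1, its partner, had 10.7 CPM, and Il18r1 was highest in T/NK cells at 65.0 CPM. The inhibitor Il18bp was 304 CPM in macrophages and depended strongly on the suffix. Its macrophage levels were 22.5, 6.67, 17.1 and 375 CPM, and suffix 4 was also highest in granulocytes (427 CPM), endothelial cells (239 CPM) and fibroblasts (121 CPM), where no other suffix exceeded 15.6 CPM.

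Of the listed adaptors and kinases, 5 of 7 were named. Irak2 (166 CPM), Irak3 (128 CPM), Myd88 (129 CPM) and Tollip (50.7 CPM) were highest in granulocytes and Irak1 (91.9 CPM) in fibroblasts. Myd88 was nearly level between granulocytes and macrophages (129 CPM). Among inflammasome parts, Pycard, the adaptor that joins sensor to caspase 1, was 419 CPM in macrophages. Mefv was the only one of 11 other sensors at 50 CPM or more, with 171 CPM in granulocytes. Txnip (816 CPM), Pstpip1 (130 CPM) and Ninj1 (588 CPM), whose product ruptures the membrane of dying cells, were highest in granulocytes. Nek7, a partner of the NLRP3 protein, was highest in endothelial cells (140 CPM) and lowest in granulocytes (33.8 CPM). Zbp1 (419 CPM) and Casp8 (106 CPM) were highest in macrophages, and macrophage Zbp1 was 512 CPM in suffix 4 against 10.5 to 52.5 CPM in the others. Serpinb1a was highest in B cells (194 CPM), Brcc3 in cardiomyocytes (55.2 CPM) and Casp12 in smooth muscle (68.4 CPM).

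**Figure D5:**
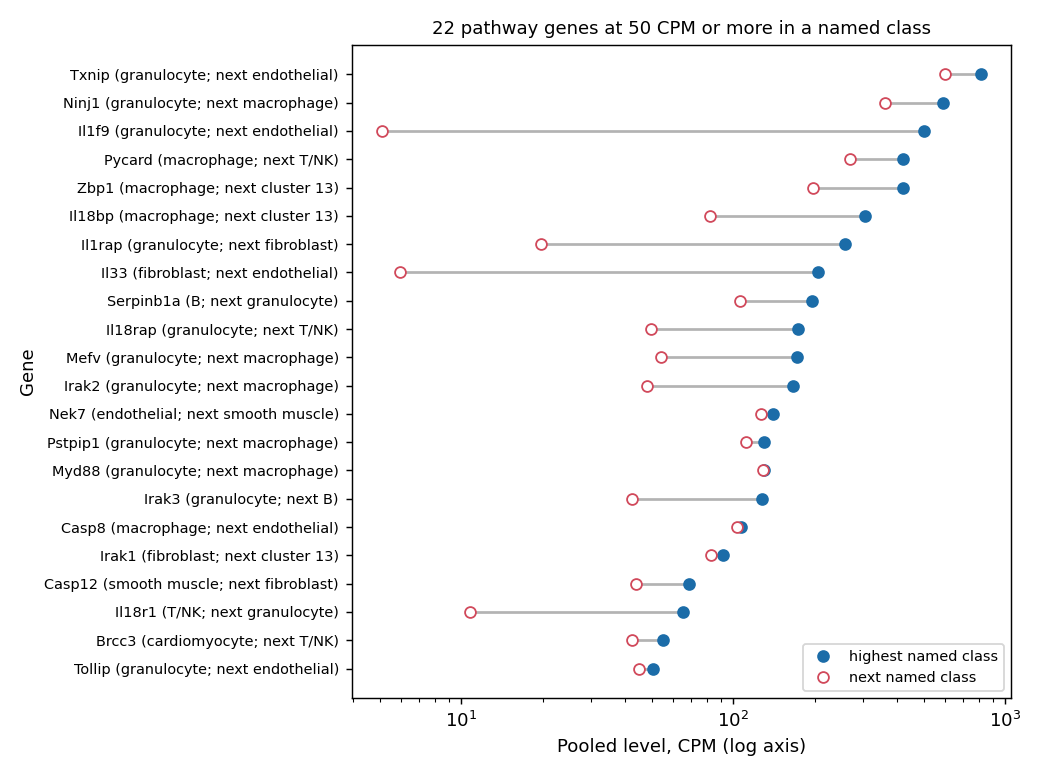
Pooled level of the 22 pathway genes at 50 CPM or more in a named class (horizontal axis, CPM on a log scale); filled points are the highest class and open points the next, both named beside the gene. Il1f9 and Il33 have the widest gaps, from 500.01 to 5.08 CPM and from 205 to 5.93 CPM.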

How the data were processed

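Cells of 4 mouse heart grafts were profiled with the 10x 3' v3 kit. Per the labels and the study's methods, the authors aligned reads to mm10 with Cell Ranger (version 3.0.0 per the file headers) and the submitters' processing notes also name CASAVA 1.8 and Seurat; they deposited raw UMI counts in 1 merged matrix of all libraries. The study's groups could not be joined to barcode suffixes, so no test was made.

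Here a cell entered the analysis if more than 200 genes were detected and less than 20% of its UMIs were mitochondrial; the 5% of each suffix closest to artificial cell pairs were then taken out as doublets. Clustering used 2000 variable genes without the 10 members, 10 principal components, 30 neighbours and Leiden at resolution 0.8 (subclusters 0.5; leidenalg 0.10.2, scikit-learn 1.9.0, Python 3.11.15). A cluster was named from at least 3 markers. The computation was tested on artificial counts with known folds. Alternatives are given in the closing section. Depth was 96020294 to 166079145 UMIs per suffix, and intervals (exact Poisson for levels, exact Clopper-Pearson for shares, both at 95%) cover counting error only. Pathway genes were named at 50 CPM or more in a named class, and the most alike gene is the one with the highest Pearson r among genes at 50 CPM or more in a unit of at least 50 cells. Of the pathway list, 4 genes were found under an older symbol. The members, marker lists, pathway list and tests were chosen with earlier results of these data known.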

Additional observations from a re-analysis of the deposited data

Results flagged for a closer look

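All 10 genes were detected in the 9169 cells left out for having at least 20% mitochondrial UMIs, above the limit that a count of 0 allows, and these cells entered no comparison. The levels there were 10.4 CPM for Il1a, 536 CPM for Il1b, 65.0 CPM for Il1rn, 58.1 CPM for Il1r1, 55.7 CPM for Il1r2, 8.64 CPM for Il18, 57.8 CPM for Nlrp3, 23.4 CPM for Casp1, 103 CPM for Casp4 and 47.6 CPM for Gsdmd. The median of these cells was 1069 UMIs.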

How the results depend on the processing

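No paired analysis was possible because no label or barcode suffix gives a replicate number that pairs grafts, and no test was made. Of 186 values under alternatives, 92 stayed within the counting interval of the reported value (or within 1.5 times for counts of genes) and 94 moved. Each gene's highest class was kept in 96 of 100 alternatives, and the 4 exceptions were Il1r1 without suffix 1, where pericytes led, and Il18 (without suffix 4 and with suffixes weighted equally) and Gsdmd without suffix 4, where cluster 13 led. Keeping doublets lowered granulocyte levels to 437 (Il1a), 6818 (Il1b), 1280 (Il1rn), 1581 (Il1r2), 733 (Nlrp3) and 170 CPM (Casp4). Requiring 500 genes gave 115 CPM of Il1r1 in fibroblasts. Weighting the suffixes equally gave 372 (Il1a), 9834 (Il1b), 939 (Il1rn), 1478 (Il1r2), 778 (Nlrp3) and 202 CPM (Casp4) in granulocytes, 34.1 (Il18), 82.2 (Casp1) and 84.0 CPM (Gsdmd) in macrophages and 115 CPM of Il1r1 in fibroblasts. Subclustering at resolution 0.3 changed the highest myeloid level to 2034 (Il1rn), 11.05 (Il1r1), 71.1 (Il18), 938 (Nlrp3), 211 (Casp1) and 191 CPM (Gsdmd), the highest fibroblast Casp4 to 151 CPM and the highest T/NK Il1r1 to 23.3 CPM. Chosen after seeing the data, adding unnamed cluster 15 to suffix 2 macrophages gave 444 (Il1a), 5266 (Il1b) and 320 CPM (Nlrp3) and 9.20 Il1rn UMIs per 100 Il1b UMIs, and leaving out the endothelial subclusters led by granulocyte genes gave 7.69 (Il1a), 69.2 (Il1b), 15.02 (Il1rn) and 14.1 CPM (Il1r2) in suffix 2 and 37.6 CPM for the Il1b level scaled from granulocyte RNA.

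Leaving out each suffix in turn gave 430 to 529 CPM for Il1a, 5429 to 14970 for Il1b, 1077 to 1466 for Il1rn, 1528 to 1760 for Il1r2, 788 to 819 for Nlrp3, 133 to 337 for Casp4, 28.5 to 63.0 for Il18, 46.3 to 190 for Casp1, 55.4 to 172 for Gsdmd and 101 to 130 for Il1r1, each in its highest class. The count of genes at least 4-fold higher in myeloid cells was 5 to 7 and that in stromal cells 1 each time. Where the suffixes left out move a value, the cause was not tested. The small subclusters limit precision: the gamma-delta T level rests on 24 UMIs.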
